A study of Rattus norvegicus with 4 samples.

Results

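The 7 genes described here act in cell division and were followed in oligodendrocyte precursors of the rat orbitofrontal cortex, a frontal area that helps to weigh the value of choices. They are Mki67, Top2a, Tpx2, Kntc1, Cenpf, Kif11 and Aspm, of the 25399 gene identifiers in the files. The cells are nuclei that clustered with precursor markers and held at least 1 UMI of Pdgfra, where a UMI (unique molecular identifier) marks 1 captured transcript. Of 39598 nuclei kept, 2909 were OPC-like (oligodendrocyte precursor) and 2114 of these were Pdgfra-positive. Of those, 85 held at least 2 UMIs of the 7 genes together and are called member-positive below. The genes and this threshold were chosen from the same libraries, with Tpx2 and Kntc1 already seen lower after the drug, so the values of the 7 genes in METH and saline precursors are given as a description with no test.

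The animals were 8-week-old male wild-type rats of the Sprague-Dawley strain. One group had received methamphetamine (METH), an addictive stimulant, at 1 mg/kg into the peritoneal cavity for 7 days, and the other group saline by the same route and schedule. Each group gave 2 single-nucleus libraries from tissue of 4 animals; the sources used here do not tie animals to libraries, so the spread between libraries may be partly technical. The series title describes a model of sensitization, a response that grows with repeated doses.

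Oligodendrocyte precursors are the main dividing glial cells of the adult brain. They carry the PDGF receptor that Pdgfra encodes, respond to growth factors by dividing, and give rise to myelinating oligodendrocytes. The 7 genes serve successive steps of division. Mki67 encodes the Ki-67 protein that coats mitotic chromosomes and is widely used as a proliferation marker, and Top2a the topoisomerase that untangles sister DNA. Kif11 encodes the motor that separates the spindle poles, Tpx2 a factor that nucleates spindle microtubules and activates the kinase Aurora A, and Aspm a spindle pole protein. Cenpf and Kntc1 encode kinetochore proteins, which join chromosomes to the spindle; Kntc1 belongs to the complex that brings spindle checkpoint proteins to the kinetochore. Many genes of this kind carry CCAAT boxes and a CHR element (cell cycle genes homology region) near their start, through which the MuvB complexes restrict transcription to late cell cycle stages.

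Promoter sequences were matched by symbol for 6 of the 7 genes in RefSeq's table for the rat build GRCr8; Tpx2 had no entry. The 250 bases before the start were searched on both strands for CCAAT, and for the CHR in any of the spellings TTTGAA, with its reverse complement TTCAAA, then TTCGAA, and also TTTAAA. All 6 windows held at least 1 match of each motif, and 4, Mki67 among them, held 2 or more CCAAT matches. By the outer bounds that RefSeq gives each gene, no base of the Mki67 and Kif11 windows lay before the gene. Only 143 bases did for Kntc1 and 205 for Cenpf. By these bounds, every match counted for Mki67 and Kif11, and the second CHR match of Kntc1, lies within the annotated gene. Of all 33469 windows of this length in the table, 34.0% held CCAAT, 26.5% the CHR and 9.43% both. At least 2 CCAAT matches were held by 9.42% of them. The windows of Mki67 and Kif11 are not shown, since they do not reach outside the gene. The 4 sequences below do, and they let the motif letters be compared between genes that were found together in the same nuclei. They run 5′ to 3′ in the direction of transcription, stop before the first base that RefSeq places in the gene, and carry the motif matches in capitals. Top2a lies at chr10:84473094-84473343 on the minus strand, Aspm at chr13:53625334-53625583 on the plus strand, Cenpf at chr13:103760932-103761136 on the minus strand and Kntc1 at chr12:38500565-38500707 on the minus strand.
Top2a: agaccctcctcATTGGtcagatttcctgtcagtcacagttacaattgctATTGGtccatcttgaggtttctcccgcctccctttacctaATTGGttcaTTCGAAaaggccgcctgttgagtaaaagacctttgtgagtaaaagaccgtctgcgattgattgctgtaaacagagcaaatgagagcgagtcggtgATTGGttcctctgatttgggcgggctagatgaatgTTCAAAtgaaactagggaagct
Aspm: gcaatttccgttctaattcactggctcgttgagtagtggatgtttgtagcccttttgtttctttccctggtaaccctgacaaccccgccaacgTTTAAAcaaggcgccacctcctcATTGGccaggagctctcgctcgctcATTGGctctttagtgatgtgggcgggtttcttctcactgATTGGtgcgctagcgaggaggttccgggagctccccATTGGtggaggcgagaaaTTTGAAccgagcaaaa
Cenpf: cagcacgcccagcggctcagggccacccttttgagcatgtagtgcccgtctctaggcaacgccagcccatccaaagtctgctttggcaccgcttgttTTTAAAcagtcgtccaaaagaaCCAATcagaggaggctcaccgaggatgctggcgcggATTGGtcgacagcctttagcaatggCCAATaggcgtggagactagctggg
Kntc1: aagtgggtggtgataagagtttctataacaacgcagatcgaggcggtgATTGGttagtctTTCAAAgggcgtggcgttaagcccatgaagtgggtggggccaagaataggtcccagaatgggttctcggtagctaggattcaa
The Top2a and Aspm windows each held 4 CCAAT matches and 2 of the CHR, with 1 CHR match close to the start, 22 bases upstream for Top2a and 16 for Aspm. Cenpf held 3 CCAAT matches and 1 CHR match. Kntc1 held 1 CCAAT match and 2 CHR matches, of which the second lies past the stretch shown. A match is a run of letters and no evidence of binding.

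The libraries held 10275 and 8933 barcodes for METH and 18958 and 8467 for saline, each in the order replicate 1, replicate 2. Saline replicate 1 stood apart, with the most nuclei and the shallowest ones: a median of 982 UMIs per Pdgfra-positive precursor, against 1497, 1775 and 1740 in METH replicate 1, METH replicate 2 and saline replicate 2. The precursors numbered 592 and 604 in METH replicates 1 and 2 and 395 and 523 in saline replicates 1 and 2, and in that order their UMIs summed to 972354, 1154806, 420967 and 952812. Any pair of libraries shared 23 to 69 barcode sequences, at most 0.672% of the smaller library. The OPC-like nuclei formed 2 clusters, in each of which all 13 precursor markers were detected. One of 2829 nuclei was led by Arhgap31, Vcan and Pdgfra. The other, of 80 nuclei, was led by Top2a, Cenpf, Kif11, Kif4a, Ect2, Hjurp, Diaph3, Nuf2, Nusap1 and Sgo2, all genes of mitosis or cytokinesis, and is called the Top2a-led cluster below.

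Of the 2114 precursors, 1908 held no UMI of the 7 genes, 121 held 1, 30 held 2, 11 held 3 and 25 held 6 or more. The 85 member-positive nuclei carried 481 of the 602 member UMIs (79.9%), and the fullest nucleus held 24. In 71 of them the UMIs came from at least 2 of the genes and in 30 from at least 4. The rule of at least 2 UMIs sets part of these counts. At the threshold, 6 of the 121 nuclei with 1 UMI lay in the Top2a-led cluster, 7 of the 30 with 2 and 6 of the 11 with 3. Mki67 gave 55 of the 121 single UMIs and 23 of the 60 UMIs in nuclei with 2. Member-positive nuclei were deeper than the other precursors, with medians of 2004 and 1520 UMIs, a ratio of 1.32.

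The share of member-positive precursors was 3.21% in METH replicate 1 (19 of 592 nuclei, 95% exact Clopper-Pearson interval 1.94 to 4.97). It was 4.31% in METH replicate 2 (26 of 604, 2.83 to 6.24). Saline replicate 1 had 4.81% (19 of 395, 2.92 to 7.41) and saline replicate 2 4.02% (21 of 523, 2.50 to 6.07). The means were 3.76% ± 0.774 (SD, n = 2) in METH and 4.41% ± 0.562 (n = 2) in saline; the groups overlapped and the difference of -0.656 percentage points was smaller than the pooled SD of 0.677. It was -0.108 without METH replicate 1, -1.20 without METH replicate 2, -0.258 without saline replicate 1 and -1.05 without saline replicate 2. Intervals cover counting error only. Because the share depends on depth, each nucleus with at least 1000 UMIs was also thinned to 1000, which kept 526, 566, 192 and 496 nuclei. The expected shares were then 1.90% and 2.31% in METH and 5.76% and 2.74% in saline, so that the groups no longer overlapped, and saline replicate 1 stood highest on 192 of its 395 precursors. With at least 3 UMIs required, 9 and 14 METH and 17 and 15 saline nuclei remained, 1.52% and 2.32% against 4.30% and 2.87%.

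**Figure D1:**
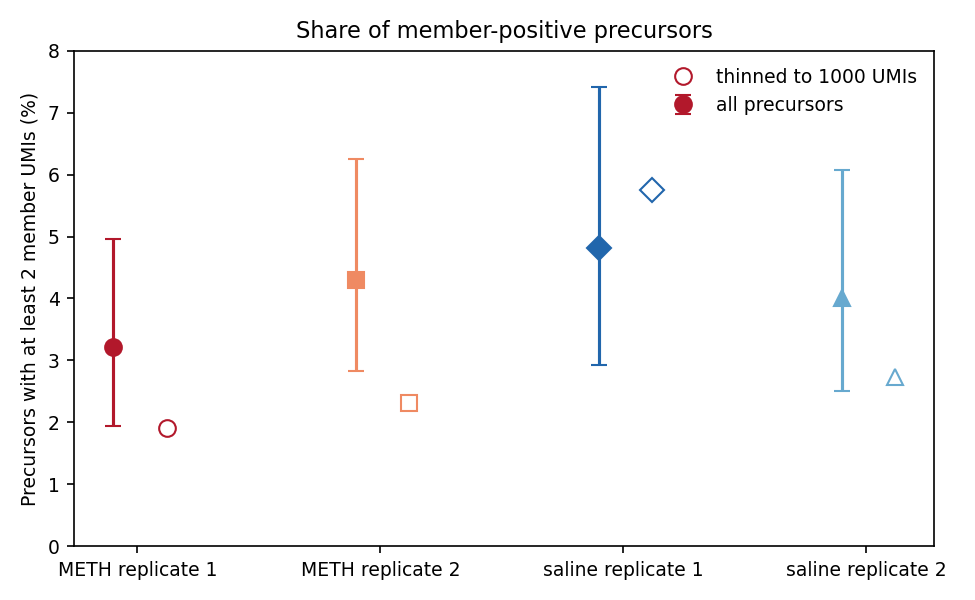
Share of Pdgfra-positive precursors with at least 2 UMIs of the 7 genes in each library, in percent. Filled symbols are all precursors with 95% exact Clopper-Pearson intervals, which all overlap between 3.21% and 4.81%; open symbols are nuclei thinned to 1000 UMIs, where saline replicate 1 stands highest at 5.76%.

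Summed over the precursors of a library, the 7 genes together stood at 134.7 and 143.7 CPM after METH and 282.7 and 195.2 CPM in saline. Both METH libraries lay below both saline libraries, with a log2 ratio of the means of -0.78, which was -0.49 without saline replicate 1. CPM is the count per 1000000 UMIs of these nuclei, a relative level, so fewer cycling cells and less transcript per cycling cell cannot be told apart in a sum. The sums rest on 131, 166, 119 and 186 UMIs in the order METH 1, METH 2, saline 1, saline 2, which is kept for the values that follow.

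Among the chromosome genes, Mki67 stood at 26.7, 35.5, 28.5 and 35.7 CPM from 113 UMIs in all. The METH and saline values were interleaved. Top2a stood at 21.6, 37.2, 66.5 and 35.7 CPM from 126 UMIs. Its highest value was in saline replicate 1 and the other saline library lay below METH replicate 2, so that the groups overlapped and the log2 ratio of -0.80 became -0.28 without saline replicate 1.

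Of the kinetochore genes, Kntc1 stood at 9.26 and 11.3 CPM after METH and 35.6 and 22.04 CPM in saline, from 9, 13, 15 and 21 UMIs. Both METH values lay below both saline values, with a log2 ratio of -1.49 that was -1.10 without saline replicate 1. Cenpf stood at 15.4 and 17.3 CPM after METH and 52.3 and 28.3 CPM in saline, from 15, 20, 22 and 27 UMIs. The groups did not overlap either, and its log2 ratio of -1.30 became -0.79 without saline replicate 1.

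Of the spindle genes, Tpx2 stood at 18.5 and 10.4 CPM after METH and 42.8 and 25.2 CPM in saline, from 18, 12, 18 and 24 UMIs. Its groups did not overlap, and the log2 ratio was -1.23, or -0.80 without saline replicate 1. Kif11 stood at 27.8 and 23.4 CPM after METH and 42.8 and 32.5 CPM in saline, a log2 ratio of -0.56 without overlap, and -0.35 without saline replicate 1. Aspm, with 46 UMIs the scarcest of the 7, stood at 15.4, 8.66, 14.3 and 15.7 CPM and its groups overlapped.

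Thus 4 of the 7 genes, Tpx2, Kntc1, Cenpf and Kif11, had both METH values below both saline values, and saline replicate 1 gave the highest value for each of them. Of the 9215 genes tested in these precursors, 15.7% showed METH below saline without overlap and 16.2% METH above saline. The rule used this contrast, so nothing is read from the count. A comparison of 2 libraries with 2 cannot give an exact permutation p below 0.3333.

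**Figure D2:**
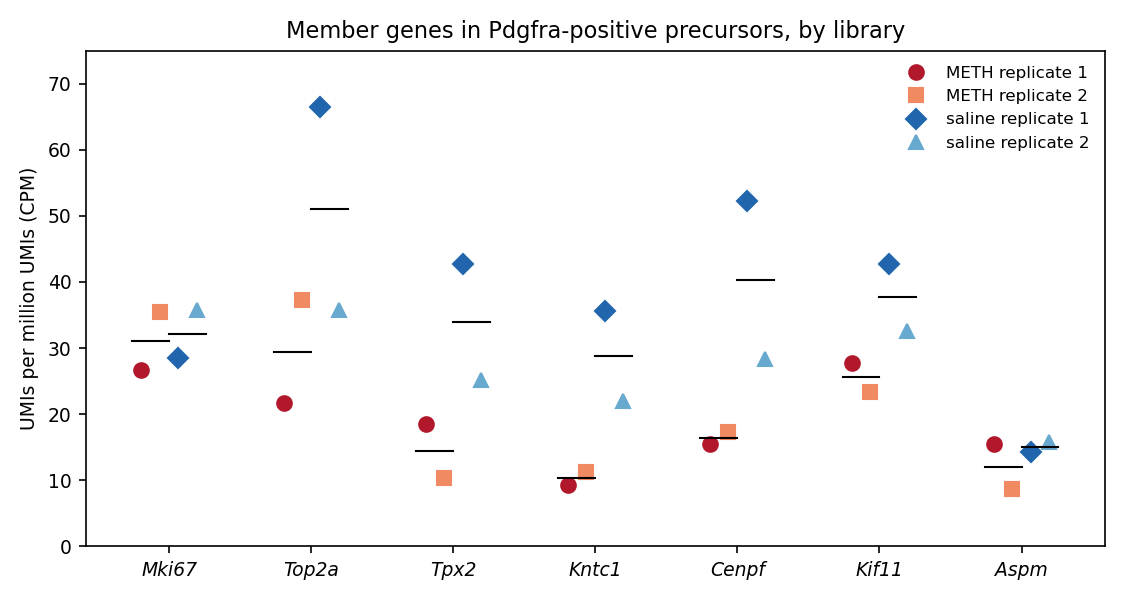
Level of each of the 7 genes, in CPM, summed over the Pdgfra-positive precursors of each library, with 1 symbol per library and a black line at each group's mean. METH and saline symbols are apart for Tpx2, Kntc1, Cenpf and Kif11 and interleaved for Mki67, Top2a and Aspm; saline replicate 1 reaches 66.5 CPM for Top2a.

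The levels were also taken inside and outside the Top2a-led cluster, which held 12 and 19 METH and 19 and 14 saline precursors, or 2.03%, 3.15%, 4.81% and 2.68%. Within it Top2a stood at 917 and 867 CPM after METH and 909 and 972 CPM in saline, close together. Tpx2 stood at 393 and 178 CPM in METH against 530 and 564 CPM in saline, from 8 to 18 UMIs per library. Cenpf stood at 567 and 378 against 795 and 752 CPM. Kntc1 stood at 262 and 88.9 against 265 and 251 CPM, from 4 to 8 UMIs, so that METH replicate 1 lay between the saline libraries. Kif11 stood at 829 and 467 against 568 and 815 CPM and Aspm at 611 and 178 against 151 and 408 CPM, and in both the groups overlapped. Outside the cluster Kntc1 stood at 3.16 and 8.11 against 20.3 and 14.1 CPM, whereas Cenpf stood at 2.11, 2.70, 2.54 and 3.26 CPM with overlapping groups. Tpx2 (9.48 and 3.60 against 10.1 and 6.52 CPM) and Kif11 (8.43 and 5.41 against 7.60 and 5.43 CPM) overlapped there as well. These cluster values are descriptive, since the genes themselves shaped the cluster.

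Whether the 7 genes mark the same nuclei was tested one gene at a time. For each gene, the nuclei with at least 2 UMIs of the other 6 were summed per library and compared with the remaining precursors of that library by edgeR's quasi-likelihood test with the library as a block, over all genes that passed the filter on low counts. All 7 genes were higher in the nuclei chosen by the other 6, with adjusted p-values from 9.4e-68 (Top2a) to 7.0e-11 (Mki67), and higher in 4 of 4 libraries each. Of all genes tested, the same fits called higher 5.69% for Mki67, 4.15% for Top2a, 4.85% for Tpx2, 4.77% for Kntc1, 4.65% for Cenpf, 4.70% for Kif11 and 4.76% for Aspm. Each of the 7 genes was too scarce in the remaining precursors to pass the filter there, and so passed it through the chosen nuclei alone. Their direction and the 4 of 4 libraries therefore follow from the filter. With no filter on low counts all 7 were also called higher.

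Cenpf rose most, by 7.26 ± 0.384 (SE) on the log2 scale. It stood at 263, 287, 906 and 564 CPM in the chosen nuclei and at 2.17, 2.74, 5.01 and 1.10 CPM in the rest, and 90.5% of its UMIs in precursors lay in the chosen nuclei. Aspm rose by 6.90 ± 0.509 and Top2a by 6.18 ± 0.345, the latter from 1.09, 14.5, 15.0 and 4.38 CPM to 385, 523, 1034 and 747 CPM. Kif11 rose by 5.87 ± 0.355, and 42 of the 75 nuclei chosen without it (56.0%) held a Kif11 UMI, against 23 of 2039 others (1.13%). Tpx2 rose by 5.22 ± 0.405, with 68.1% of its precursor UMIs in the chosen nuclei.

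Kntc1 and Mki67 were the most spread. Kntc1 rose by 3.88 ± 0.450 and had 44.8% of its precursor UMIs in the chosen nuclei. Mki67 rose by 2.93 ± 0.401, from 24.4, 33.3, 15.1 and 21.9 CPM to 105, 94.1, 256 and 355 CPM, with 23.9% of its UMIs there. A UMI of Mki67 was found in 73 of the 2047 nuclei not chosen by the other genes (3.57%), more than for any of the other 6 (0.246% for Aspm to 1.57% for Kntc1). All calls held in every alternative in which a gene passed the filter; against the nuclei nearest in depth, 3 genes passed it, Top2a, Cenpf and Kif11, and all 3 were called. Apart from the fit with no filter, the alternatives applied the same filter, so this agreement was partly set in advance.

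**Figure D3:**
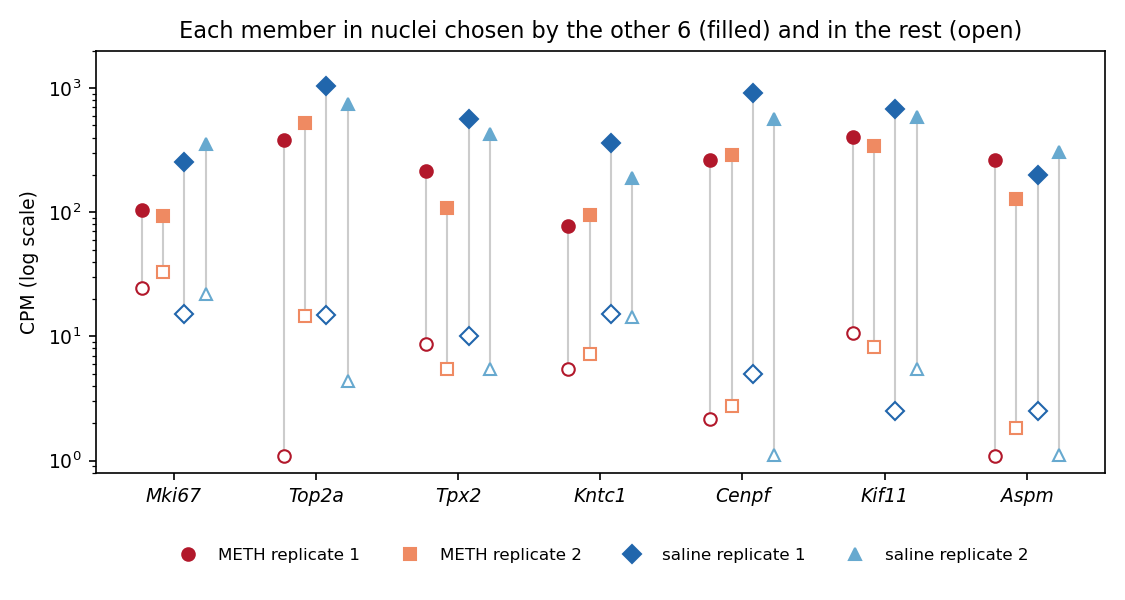
Level of each gene (CPM, log scale) in precursors with at least 2 UMIs of the other 6 genes (filled) and in the remaining precursors (open), joined by a grey line within each library. Every filled symbol lies above its open partner; the gap is widest for Cenpf, at 7.26 on the log2 scale, and narrowest for Mki67, at 2.93.

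Beyond the 7 genes, member-positive precursors were compared with all other precursors in the same way, with the members left out. Of 4595 genes tested by edgeR's quasi-likelihood test, 213 (4.64%) were higher and 78 (1.70%) lower at an adjusted p under 0.05. The 15 largest rises were nearly all in genes known from mitosis. Cep55, which acts in the final cut between daughter cells, stood at 207, 226, 161 and 326 CPM in member-positive nuclei and at 2.18, 0.915, 2.53 and 0 CPM in the others, from 44 and 4 UMIs (log2 fold change 7.28 ± 0.519, adjusted p = 1.2e-41). Nusap1, a spindle microtubule protein, stood at 207, 274, 402 and 499 CPM against 3.26, 1.83, 5.05 and 1.10 CPM (6.88 ± 0.440, adjusted p = 3.5e-51). Every library had the higher level in member-positive nuclei, as the rule for naming these genes required. For genes this scarce in the other precursors the filter on low counts required it as well. With no such filter, 231 of 16102 genes were higher and 245 lower, and 138 of the higher ones were among the 213.

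The other 13 of the 15 genes with the largest rise had log2 fold changes from 5.56 (Kif4a) to 6.85 (Ttk). Ttk, Bub1b, Knl1 and Sgo2 belong to the kinetochore, its checkpoint or the guarding of sister cohesion. Kif2c and Kif4a encode kinesins, Troap and Ckap2 spindle proteins, Ect2 an activator of the cytokinetic ring, Hjurp the chaperone of the centromeric histone, Cdca2 a phosphatase subunit of mitotic chromatin and Melk a kinase of dividing cells. Nostrin, an endothelial trafficking gene, was the exception (5.70 ± 0.642, from 18 and 5 UMIs). In RefSeq's table it overlaps Spc25, a kinetochore gene, and whether the authors' counting separated the pair was not stated in the sources used here.

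Lists of cell cycle genes were described by their counts, beside a median log2 fold change of -0.06 over all genes tested. The lists were drawn up with earlier results of these libraries known. A gene scarce in the other precursors could pass the filter only if it was high in the member-positive nuclei of all 4 libraries. Such a gene could not come out lower, so the numbers that rose and the list medians were partly set by the filter. They do not cover the genes that failed it. Of the spindle and cytokinesis list, 19 of 31 genes were tested and 18 rose, with a median of 4.62. Diaph3, a formin of the contractile ring, stood at 564, 516, 442 and 369 CPM against 11.97, 12.8, 20.2 and 13.2 CPM, high in every library (5.06 ± 0.322). Kif20b (4.95) and Kif15 (4.40) were further examples. Cit was the one tested gene not called (0.72, adjusted p = 0.11).

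Of the kinetochore and checkpoint list, 15 of 24 genes were tested and 14 rose, with a median of 4.70. Ndc80 and Nuf2, partners in the complex that grips microtubules, rose by 5.45 ± 0.416 and 4.70 ± 0.351, and the checkpoint kinase gene Bub1 by 5.28 ± 0.491. Of the cyclins, mitotic kinases and regulators, 6 of 25 were tested and 5 rose: Melk, Plk4, the kinase of centriole duplication (3.91 ± 0.476), the phosphatase gene Cdc25c (3.42 ± 0.533), Bora (2.75) and Lin9, a subunit of the MuvB core (1.92).

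Of the list of replication and S phase genes, 16 of 49 passed the filter and 13 of these rose, with a median of 2.38; the other genes on the list are not covered. Pola1, the catalytic subunit of the polymerase that starts new strands, stood at 734, 854, 1204 and 738 CPM against 175, 176, 144 and 127 CPM (2.40 ± 0.192, adjusted p = 4.4e-33). Its UMIs were also found in other precursors, and its log2 fold change lay below the medians of the spindle and kinetochore lists. Cdc45, part of the replicative helicase, rose by 3.82 ± 0.437, Gmnn, the inhibitor of re-replication, by 4.02 ± 0.601, and Brip1 by 3.68 ± 0.350, the last with 113 CPM in METH replicate 1 and 562 CPM in saline replicate 1.

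Of the chromosome condensation and chromatin genes, 13 of 20 passed the filter and 10 of these were higher, with a median of 2.37. The condensin genes Ncaph (3.87 ± 0.408), Smc4 (3.56 ± 0.358), Ncapg2 (3.18), Ncapd3 (2.53) and Smc2 (2.37) all rose. Ezh2, the methyltransferase of Polycomb complex PRC2, stood at 527, 580, 642 and 521 CPM against 116, 120, 96.0 and 102 CPM (2.31 ± 0.216). The cohesin genes Smc1a and Smc3 did not pass the test (0.81 and 0.74, adjusted p = 0.11 and 0.095).

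Of the list of G1 cyclins, inhibitors and pocket proteins, 6 of 19 genes were tested and 2 rose, with a median of 0.56. Cdkn2b, an inhibitor of the G1 kinases Cdk4 and Cdk6, rose by 4.88 ± 0.571 from 11 UMIs in other precursors to 20 in the member-positive ones. It was higher in 4 of 4 libraries, which the filter required of a gene this scarce in the others. Rbl1, a pocket protein of the DREAM repressor, rose by 1.79 ± 0.395, and without saline replicate 1 by 1.30, no longer past the threshold. Ccnd1, Rb1 and Rbl2 were tested and not called (log2 fold changes 0.097, 0.36 and 0.76).

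Member-positive nuclei carried the markers of precursors at somewhat lower levels. Over 13 precursor markers the summed level was 13090 to 14000 CPM in member-positive nuclei and 14870 to 16550 CPM in the others. Of the identity list 14 of 17 genes were tested, Pdgfra included, which had chosen the nuclei; all 14 had negative values, the median was -0.40, and 4 fell. Sox6, which holds precursors undifferentiated, stood at 2257, 2207, 1887 and 2235 CPM against 2800, 2737, 3068 and 3067 CPM (-0.46 ± 0.111, adjusted p = 0.0012). Tnr (-0.47 ± 0.132), Vcan (-0.39 ± 0.121) and Megf11 (-0.41 ± 0.138) were lower by similar amounts. All 4 calls were lost by DESeq2's Wald test, without saline replicate 2 and with at least 2 Pdgfra UMIs. Those of Tnr and Megf11 were also lost against the nuclei nearest in depth. Olig1, Olig2 and Sox10 were not called.

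Of the differentiation list 6 of 16 genes were tested and 1 fell. Bcas1, a marker of cells that are leaving the precursor state, stood at 1335, 596, 602 and 673 CPM in member-positive nuclei and 1239, 1314, 1199 and 1371 CPM in the others (-0.70 ± 0.144, adjusted p = 4.9e-05). It was lower in 3 of 4 libraries and higher in METH replicate 1. Its call was lost without METH replicate 2, with at least 2 Pdgfra UMIs and with at least 3 member UMIs. Of the mitogen receptors 7 of 12 were tested and 1 fell, Erbb3, the neuregulin receptor (-1.496 ± 0.469, adjusted p = 0.026, from 8 UMIs in member-positive nuclei). The Erbb3 call was lost by DESeq2's Wald test, without METH replicate 1 or saline replicate 2, and with at least 2 Pdgfra UMIs or at least 1 member UMI. Igf1r, Fgfr1, Insr, Ntrk2, Ntrk3 and Gpr37l1 were not called.

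The genes with the largest falls were scarce in member-positive nuclei, so their size is uncertain. Atg2b, a lipid transfer gene of autophagy, had 1 UMI there and 179 in other precursors, a ratio of summed levels of 0.0994 (95% exact interval 0.00250 to 0.561). Has2, a hyaluronan synthase, had 1 and 175 (0.102, 0.00256 to 0.574). Hbp1, a repressor that restrains cell cycle entry, had 2 and 230 (0.155, 0.0186 to 0.566), and Malt1 2 and 201 (0.177, 0.0213 to 0.648). A direction shared by all 4 libraries was part of the rule that named them. These 4 genes passed the filter on low counts through the other precursors alone, so their direction followed from the filter as well. None of these 4 genes was called by DESeq2's Wald test, and each lost its edgeR call without at least 1 of the libraries: Atg2b without METH replicate 1, saline replicate 1 or saline replicate 2, Has2 and Malt1 without METH replicate 2, saline replicate 1 or saline replicate 2, and Hbp1 without METH replicate 1 or saline replicate 2. The log2 fold change of Hbp1 moved from -2.70 to -0.63 with doublets kept and to -0.85 with at least 1 member UMI. The remaining 6 of the 10 named by size were Fam214a, Gal3st1, Nacc2, Dnah5, Cfap52 and Gpr158, with log2 fold changes from -2.32 to -1.69 on 4 to 10 UMIs. Fam214a, Nacc2 and Dnah5 also passed the filter through the other precursors alone. Cfap52, a gene of cilia, had 10 UMIs against 643 (-1.88 ± 0.4001, adjusted p = 1.0e-04).

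The counts of lower genes depended on the libraries and the tool. There were 40 lower genes without METH replicate 2, 36 without saline replicate 2, and 13 by DESeq2's Wald test, which called 161 higher. Markers of other cell types in member-positive against other precursors were as follows, and their part in the results was not tested. The 5 of 5 perivascular macrophage markers were at 0 in member-positive nuclei, and 3 of them also in the others, where they summed to 0 to 3.26 CPM. At so low a level the zeros tell little. Vascular markers summed to 0 to 226 CPM against 25.4 to 49.4 CPM, microglia markers to 120 to 320 against 125 to 196 CPM, and oligodendrocyte markers to 357 to 763 against 285 to 384 CPM. Astrocyte markers summed to 602 to 950 against 899 to 1105 CPM, excitatory neuron markers to 326 to 723 against 442 to 699 CPM, and inhibitory neuron markers, some of which precursors also express, to 1758 to 2407 against 1760 to 2149 CPM. Against the precursor nearest in depth to each member-positive nucleus, 978 genes passed the filter, 35 were higher and 19 lower, and Pola1, Atad2, Prim1, Diaph3, Nuf2, Ezh2 and Tmpo were among the higher list genes.

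**Figure D4:**
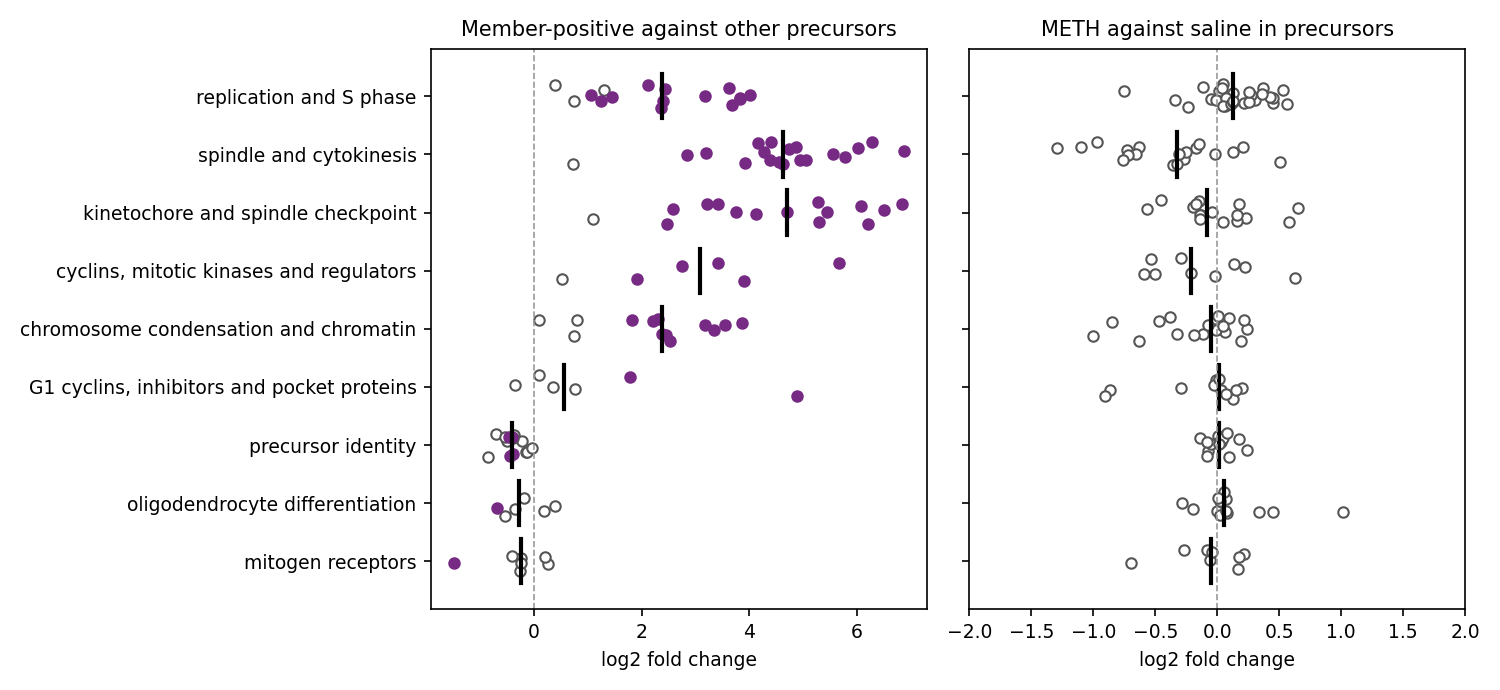
Log2 fold change of each tested gene of 9 lists in member-positive against other precursors (left) and in METH against saline precursors (right). Filled symbols passed an adjusted p of 0.05 and black lines are list medians; on the left the spindle and kinetochore medians are 4.62 and 4.70, and on the right no symbol is filled. The axes differ in scale.

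In METH against saline precursors, 9215 genes were tested by edgeR's quasi-likelihood test, and 5 (0.0543%) were higher in METH and 0 (0%) lower. At an adjusted p under 0.05 none of the genes on the 9 lists was called in either direction; DESeq2's Wald test called 0 genes of any kind. At an unadjusted p under 0.05 edgeR gave 207 genes higher and 197 lower with the 7 members left aside, and of 136 list genes tested 2 higher and 9 lower. The 5 called genes are on no list and were named after their values were seen. They were Cst3, a secreted protease inhibitor (577 and 487 CPM in METH, 321 and 301 CPM in saline, log2 fold change 0.78 ± 0.110), Mertk (0.78 ± 0.150), Htra1 (0.87 ± 0.165), Cables1, a regulator of cyclin-dependent kinases (0.49 ± 0.113), and RGD1566265 (2.39 ± 0.556). Beside these, summed astrocyte markers in the precursors that were not member-positive stood at 984 and 1105 CPM after METH and 906 and 899 CPM after saline, and microglia markers at 178 and 196 against 162 and 125 CPM, both higher in METH without overlap. So were inhibitory neuron markers (2149 and 1990 against 1760 and 1963 CPM) and vascular markers (38.1 and 49.4 against 30.3 and 25.4 CPM). For excitatory neuron, oligodendrocyte, perivascular macrophage and precursor markers the groups overlapped. The part of these marker levels in the calls was not tested. The count was 1 higher gene without METH replicate 2 or without saline replicate 1, and 6 lower genes appeared without METH replicate 1 or without saline replicate 2.

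The lists gave these values beside a median of -0.0014 over all genes tested. The spindle and cytokinesis genes had negative values in 16 of 19, with a median of -0.33, and 9 of the 19 had both METH values below both saline values, where 15.7% of all genes did. The same count was 4 of 16 for the kinetochore list, 3 of 9 for the cyclins and mitotic kinases, 1 of 28 for replication, 1 of 18 for condensation, 3 of 11 for the G1 list, 3 of 14 for precursor identity, 0 of 13 for differentiation and 3 of 8 for mitogen receptors. In the other direction, both METH values above both saline values, it was 4 for replication, 3 each for condensation and differentiation, 2 for mitogen receptors, 0 for precursor identity and 1 for each of the other 4 lists, where 16.2% of all genes did. The summed level of the spindle list over its 31 genes was 472 and 515 CPM after METH and 717 and 585 CPM after saline, highest in saline replicate 1. In member-positive precursors this sum was 3479 and 3947 CPM after METH and 7347 and 6381 CPM after saline. In the other precursors it was 298 and 320 against 301 and 290 CPM, and the groups overlapped. The gap in the sum thus lay in nuclei chosen by UMIs of the members. The spindle list is therefore not read as evidence separate from the members. Of the member-positive precursors, 52.6% and 57.7% in METH and 84.2% and 61.9% in saline lay in the Top2a-led cluster. Those with only 2 member UMIs numbered 10 and 12 in METH and 2 and 6 in saline. The part of this make-up in the gap was not tested. Kif4a, the chromosome-arm kinesin, stood at 13.4 and 19.9 CPM after METH and 54.6 and 27.3 CPM in saline (-1.10 ± 0.343, unadjusted p = 0.0013, adjusted p = 0.76 by edgeR). Prc1, which bundles the central spindle, stood at 10.3 and 8.66 CPM against 21.4 and 24.1 CPM (-1.29 ± 0.454, adjusted p = 0.97 by edgeR). In both genes METH and saline did not overlap, and the highest Kif4a value was that of saline replicate 1.

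The kinetochore list had a median of -0.09 with 9 of 16 values negative, and the cyclins and mitotic kinases -0.21 with 6 of 9 negative. Replication genes had positive values in 22 of 28, with a median of 0.13. Pola1 stood at 206, 212, 207 and 156 CPM and its groups overlapped. Chromosome condensation genes had a median of -0.05, with Ncapg at 9.26 and 9.53 CPM after METH and 19.0 and 18.9 CPM in saline (-1.001 ± 0.486, adjusted p = 1.0 by edgeR). The medians were 0.02 for the G1 list, 0.02 for precursor identity, 0.06 for differentiation and -0.05 for mitogen receptors. Igf1r stood at 195 and 197 CPM after METH and 271 and 216 CPM in saline, and Itpr2 at 227 and 252 against 164 and 205 CPM, neither past the adjusted threshold.

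The 7 genes were also measured in 7 other classes. UMIs of Top2a, Cenpf and Kif11 were concentrated in the OPC-like nuclei, which held 53.8%, 66.1% and 45.2% of all UMIs of these genes in the data. Median levels over the 4 libraries in Pdgfra-positive precursors were 36.5 CPM for Top2a, 22.8 for Cenpf and 30.2 for Kif11, and the ranges over libraries lay above those of every other named class: the highest value of any other named class and library was 7.81 CPM for Top2a (microglia-like), 4.22 for Cenpf (vascular-like) and 17.5 for Kif11 (perivascular macrophage-like). Levels are compared between classes for 1 gene at a time, since 3′ counts are not per length.

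Mki67 was ordered otherwise. Its median was highest in microglia-like nuclei at 65.1 CPM (52.5 to 82.0), then 35.6 in perivascular macrophage-like (17.5 to 77.9), 32.0 in precursors (26.7 to 35.7) and 29.1 in inhibitory neuron-like nuclei (23.8 to 35.4). The last 3 overlapped, and the microglia-like range overlapped that of the perivascular macrophage-like nuclei. Vascular-like (10.9), excitatory neuron-like (9.47), oligodendrocyte-like (5.13) and astrocyte-like nuclei (4.43) followed. Of all Mki67 UMIs, 50.9% lay in excitatory neuron-like and 24.5% in inhibitory neuron-like nuclei. Top2a and Cenpf, which accompany Mki67 in dividing cells, had 6 and 1 UMIs in all microglia-like nuclei, against 121 of Mki67.

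Tpx2 had 81.9% of its UMIs in excitatory neuron-like nuclei, where it stood at 12.3, 13.8, 16.8 and 15.5 CPM, a range that the METH precursors at 18.5 and 10.4 CPM straddled. Kntc1 and Aspm had 64.3% and 58.2% of their UMIs there, at medians of 3.25 and 3.10 CPM, below the ranges in precursors (9.26 to 35.6 and 8.66 to 15.7 CPM). Free RNA in droplets can add UMIs to any nucleus. The share of nuclei with at least 2 member UMIs was 2.42% in excitatory neuron-like nuclei at a median of 4540 UMIs and 0.184% in oligodendrocyte-like nuclei at 1174, against 4.02% in precursors at 1532. After thinning to 1000 UMIs it was 0.0918% and 0.0636%, against 2.68% in precursors. For microglia-like nuclei it was 0.935%, and 0.589% after thinning.

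**Figure D5:**
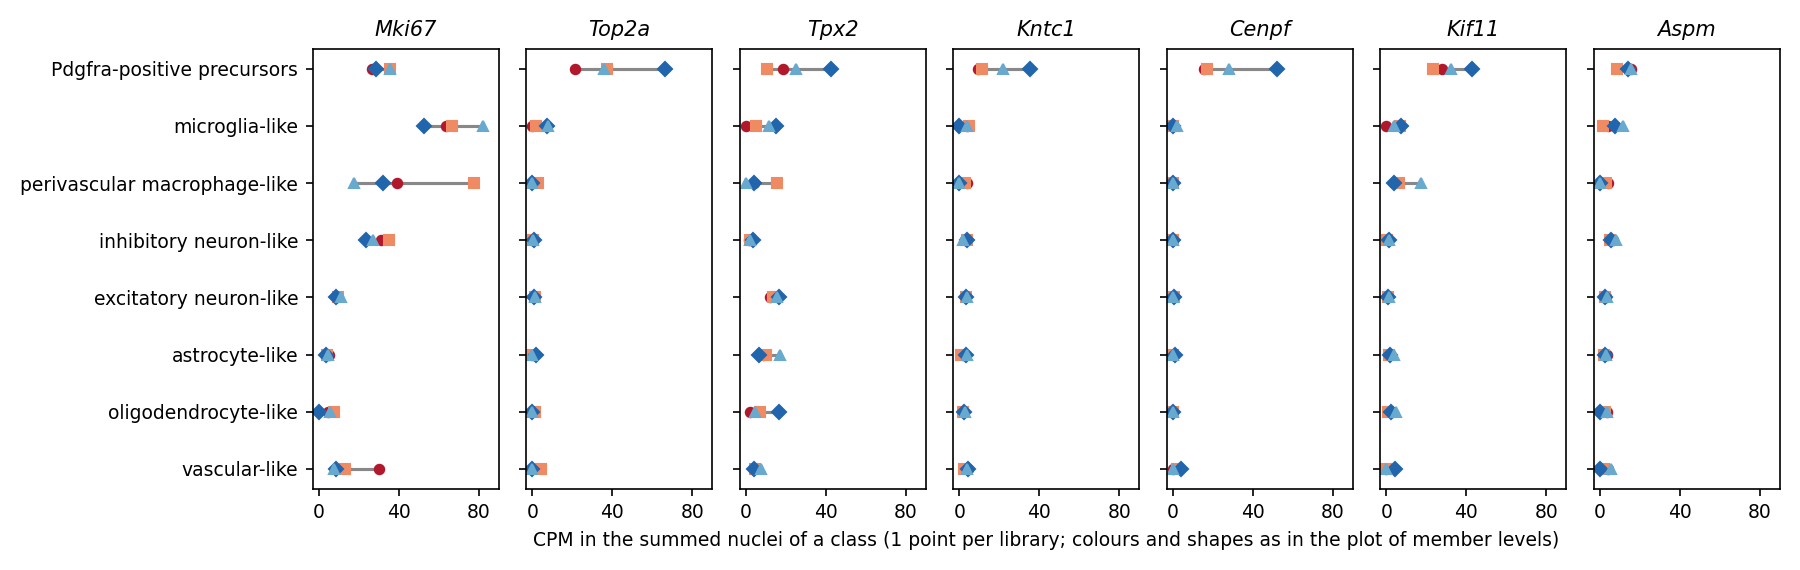
Level of each gene (CPM) in the summed nuclei of 8 classes, 1 symbol per library with colours and shapes as in the plot of member levels and a grey line over the range. Top2a, Cenpf and Kif11 stand above the other classes in precursors, Mki67 is highest in microglia-like nuclei (median 65.1 CPM), and Tpx2 is present in excitatory neuron-like nuclei at 12.3 to 16.8 CPM.

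METH and saline were compared for these genes in the other classes by the same edgeR test. Of 49 pairs of a gene and a class, 12 passed the filter on low counts, in excitatory and inhibitory neuron-like, astrocyte-like and microglia-like nuclei, and 0 were called at an adjusted p under 0.05. The tests called 0.0133% of 15009 genes in excitatory neuron-like nuclei, 0.0169% of 11849 in inhibitory neuron-like nuclei and 0% in astrocyte-like and microglia-like nuclei; in the classes where no member was tested they called 0.0224% in oligodendrocyte-like and 0% in vascular-like and perivascular macrophage-like nuclei. At an unadjusted p under 0.05 there were 2 pairs, and DESeq2's Wald test gave 0 at either threshold. In excitatory neuron-like nuclei Tpx2 had a log2 fold change of -0.29 ± 0.114 (unadjusted p = 0.027, adjusted p = 1.0 by edgeR), with both METH values below both saline values. In inhibitory neuron-like nuclei Mki67 stood at 31.1 and 35.4 CPM after METH and 23.8 and 27.1 CPM in saline (0.37 ± 0.154, unadjusted p = 0.027, adjusted p = 1.0 by edgeR). Kif11 in excitatory neuron-like nuclei stood at 0.667 and 0.698 CPM after METH and 1.08 and 1.18 CPM after saline (-0.70 ± 0.325, unadjusted p = 0.055, adjusted p = 1.0 by edgeR), the widest fold of the 12 pairs. Kntc1 in the same nuclei stood at 3.21, 3.14, 3.28 and 3.84 CPM (-0.14 ± 0.192). Whether the change of any of these genes differs between precursors and another class was not tested.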

How the data were processed

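Orbitofrontal nuclei went through droplet capture and 3′ library preparation, per the labels. For each of 4 libraries the authors deposited raw UMI counts per gene and barcode, made with Cell Ranger 7.0.0 per the file headers. The submitters' processing notes name hg38, while the identifiers are rat Ensembl; the rat build was not stated in the sources used here. The other deposited columns hold barcodes and gene names, not measurements.

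Barcodes with under 500 genes or over 5% mitochondrial UMIs were left out, and the highest Scrublet scores were removed as doublets, up to 0.8% per 1000 barcodes. With Scanpy 1.11.5, counts were scaled to 10000, and 3000 variable genes, 30 components and 20 neighbours were used for Leiden clustering at resolution 1; clusters were named from markers. Counts were summed per library and tested with edgeR 4.0.16 (TMM, filterByExpr, quasi-likelihood F test, two-sided, Benjamini-Hochberg over all genes tested; SE from the F statistic) in R 4.3.3, with DESeq2 1.42.0 and the settings of the closing section as alternatives. Only the edgeR fits were tested on simulated counts, with changes placed in the better-covered genes, so scarce genes were not covered. The barcode filter, doublet removal, clustering and naming were not tested in this way. Members and lists were chosen with earlier results of these data known. Named genes were the 15 highest and 10 lowest called genes with 1 direction in 4 libraries and no placeholder name, and of each list up to 8 called genes, or the 2 with the smallest p.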

Additional observations from a re-analysis of the deposited data

How the results depend on the processing

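The difference in the share of member-positive precursors, METH minus saline, was -0.656 percentage points. It moved to -5.64 with at least 1000 genes per nucleus, which left 54 precursors in saline replicate 1, to -1.40 with at least 2 Pdgfra UMIs, to -1.67 with at least 3 member UMIs and to -2.14 after thinning. It was nearer to 0 with a marker gate in place of clusters (-0.209), with cell cycle genes left out of clustering (-0.238) and with at least 1 member UMI (-0.395), and ranged from -1.20 to -0.108 with 1 library left out. The log2 ratio of the summed level was -0.78, -1.30 with at least 1000 genes, and -1.02 to -0.49 with 1 library left out. Both were negative in every alternative run. Genes beside member UMIs numbered 213 higher and 78 lower. They were 73 and 30 with at least 1000 genes, 82 and 22 with at least 2 Pdgfra UMIs, and 35 and 19 against the nearest in depth, each with fewer genes tested. Lower genes alone moved to 13 (DESeq2), 245 (no filter), 137 (all OPC-like nuclei), 48 (a marker gate in place of clusters) and 32 (at least 1 member UMI), and ranged from 36 to 76 with 1 library left out, when 173 to 220 were higher. Co-detection was called for 7 genes, and for 3 with at least 1000 genes or the nearest in depth, where 3 passed the filter. METH against saline in precursors gave 5 higher and 0 lower genes. There were 0 higher by DESeq2, 2 with at least 1000 genes, 2 in all OPC-like nuclei, 1 with at least 2 Pdgfra UMIs, and 0 higher with 1 lower under the marker gate; with 1 library left out 1 to 7 were higher and 0 to 6 lower. The causes were not tested. Of 1048 values of single genes under the alternatives, 86 were no longer past the threshold and 0 changed direction. All these genes were called in the main fit and most were chosen for it, so the lack of reversals was partly set by the choice. Replicate 1 of METH and of saline share only a number (correlation of their deviations 0.0403 over 8757 genes); with the replicate block 6 genes were higher and 1 lower, and 0 members were called in other classes. Depth limits the members: each gene's precursor sum rests on 6 to 43 UMIs.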
